A study of Mus musculus with 6 samples.

Results

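The 43 genes described here encode proteins of the centromere, the kinetochore and the spindle checkpoint. They were taken as a list of symbols, by a rule that uses no measured value, although the list was drawn up with earlier results of these data known. All 43 were among the 21269 genes of the table, and all 43 passed the filter for testing, a mean of 5 or more normalized counts across the 6 libraries. RNA was sequenced from HL-1 cells, a line derived from mouse atrial cardiomyocytes that keeps dividing in culture. By its known origin, the line comes from an atrial tumour of mice in which the atrial natriuretic factor promoter drives the SV40 large T antigen, an oncoprotein that pushes cells through the cell cycle, so both groups share that transgene. Both groups were transfected with 50 nM of an LNA gapmer, a short DNA strand with locked nucleic acid ends that binds its target RNA and marks it for cleavage by RNase H. LNA Control received a control gapmer that the series' design calls ctrl2, and LNA Malat1 received a gapmer against the long noncoding RNA Malat1. The series holds no group with another gapmer against Malat1, so lower Malat1 and other effects of the gapmer cannot be told apart. Transfection followed seeding by 24 hours and collection followed transfection by 48 hours, with 3 libraries in each group (n = 3). All libraries come from this single cell line and were grown with norepinephrine, and nothing in the labels says whether the replicates were separate cultures. The p-values therefore measure the spread between these libraries, which may be technical.

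A centromere is the stretch of a chromosome that carries nucleosomes with the histone variant CENP-A. On this chromatin sits the constitutive centromere-associated network, a ring of proteins that stays at the centromere through the cell cycle. When a cell enters mitosis, the network recruits the outer kinetochore (the KMN network, made of the Knl1, Mis12, and Ndc80 complexes), which grips spindle microtubules. A fibrous corona forms on kinetochores without microtubules, and there the spindle checkpoint assembles an inhibitor of the anaphase promoting complex until every chromosome is attached. Cardiomyocytes largely stop dividing after birth and often end a last cell cycle with a pair of nuclei. The comparison asks how the transcripts of the centromere, kinetochore and checkpoint proteins differ in cells given the gapmer against Malat1.

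Malat1 itself was at 57.2% of LNA Control, with 5051, 5197, and 4369 normalized counts in the controls against 2833, 2792, and 2732 after LNA Malat1 (log2 fold change -0.80 ± 0.07 SE, adjusted p = 7.5e-06 by limma). Here and below, values are listed in the order of replicates 1 to 3. The libraries held between 4512253 and 5592464 reads on genes, recovered from the rounding of the values. LNA Malat1 replicates 1 and 3 differed by less than sampling noise over all genes compared (chi-square of 0.95 per gene over 14522 genes, p = 1 in the chi-square test), although by more in the 1754 genes with at least 1600 reads (1.10 per gene, p = 0.0031), so the test was also run with them as 1 sample. Over all genes compared, LNA Malat1 replicates 1 and 2 were at 1.01 per gene (p = 0.15 in the chi-square test) and 2 and 3 at 1.16. The LNA Control pairs were at 2.09 (1 and 2), 4.18 (1 and 3), and 1.77 (2 and 3). The LNA Control libraries were thus spread more, while the limma fit takes 1 spread per gene for both groups. Of 10 cardiomyocyte markers, 9 had a row in the table used here, and their summed normalized counts ranged from 4929 to 5215 in LNA Control and from 4795 to 4933 in LNA Malat1. The list moved both ways. Actn2, a protein of the Z disc, was higher (153, 105, and 144 against 235, 198, and 221, 0.71 on the log2 scale, limma adjusted p = 0.0011), as was Tnnt2 (0.15, limma adjusted p = 0.034), and Gata4 was lower (-0.21, limma adjusted p = 0.0079). The calls of Actn2 and Gata4 held with each library left out, and that of Tnnt2 held only without LNA Control replicate 3 (limma adjusted p of up to 0.14). Myh6, the atrial and adult ventricular myosin heavy chain, was nearly absent, with 0 to 7 normalized counts in every library, and Nppa had no row. Fibroblast markers, of which 4 of 6 had a row, summed to between 4329 and 5079 in LNA Control and between 3845 and 4017 in LNA Malat1, nearly all of it from the collagens Col1a1 and Col3a1, while Col1a2 stayed at 0 or 1. Col3a1 was lower (-0.33, limma adjusted p = 0.0014). Endothelial markers (2 of 4 with a row) summed to 19 to 28 in LNA Control and 32 to 35 in LNA Malat1, and leukocyte markers (2 of 4 with a row) to 14 to 25 and 36 to 47. Cd68, a macrophage marker, was higher at low counts (23, 14, and 22 against 38, 33, and 31, 0.79 on the log2 scale, limma adjusted p = 0.023), a call lost without LNA Control replicate 2 or LNA Malat1 replicates 1, 2, or 3 (limma adjusted p of 0.079, 0.1, 0.067, and 0.055). The part of these differences in the results was not tested. In bulk RNA of a whole culture, fewer cells in mitosis and less RNA per cell cannot be told apart.

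The machinery did not move as a block. Log2 fold changes were positive for 21 of the 43 genes and negative for 22. Their median was -0.04, against 0.02 over the 15650 genes tested and -0.03 over the 10490 genes whose mean was 50 or more, a level that all 43 reached. At an adjusted p of at most 0.05 in limma (on log2(normalized count + 1), adjusted over all genes tested), 6 members were higher and 8 were lower in LNA Malat1. These 14 are 32.6% of the list, beside 28.3% of all genes tested and 31.9% of those with a mean of at least 50. By direction, the background was 14.3% higher and 14% lower over all genes tested, and 12.2% and 19.7% at a mean of at least 50. With a fold change of at least 1.5 as well, only Cenpf was higher and only Cenpi and Ska1 were lower, 6.98% of the list, against 10.9% of all genes tested and 6.38% of those with a mean of at least 50. Past both thresholds, 2.92% of all genes tested were lower and 8% higher, and 3.33% and 3.05% at a mean of at least 50. The shares thus lay close to the background of genes at similar levels. The 3 libraries of one group all lay beyond those of the other in 6 higher and 12 lower genes, 41.9% of the list against 41.3% of all genes tested and 45.7% of those with a mean of at least 50. Within this total stood single subunits with large differences, and 6 of the 14, Cenpi, Ska1, Mis18a, Dsn1, Zwilch, and Cenpj, kept their direction and their side of the threshold in all 17 other settings of the fit. The counts themselves changed when a library was left out. The number higher was 4, 3, and 7 without LNA Control replicates 1, 2, and 3 and 2, 3, and 2 without those of LNA Malat1, and the number lower was 7, 5, and 9 and then 5, 6, and 4.

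**Figure D1:**
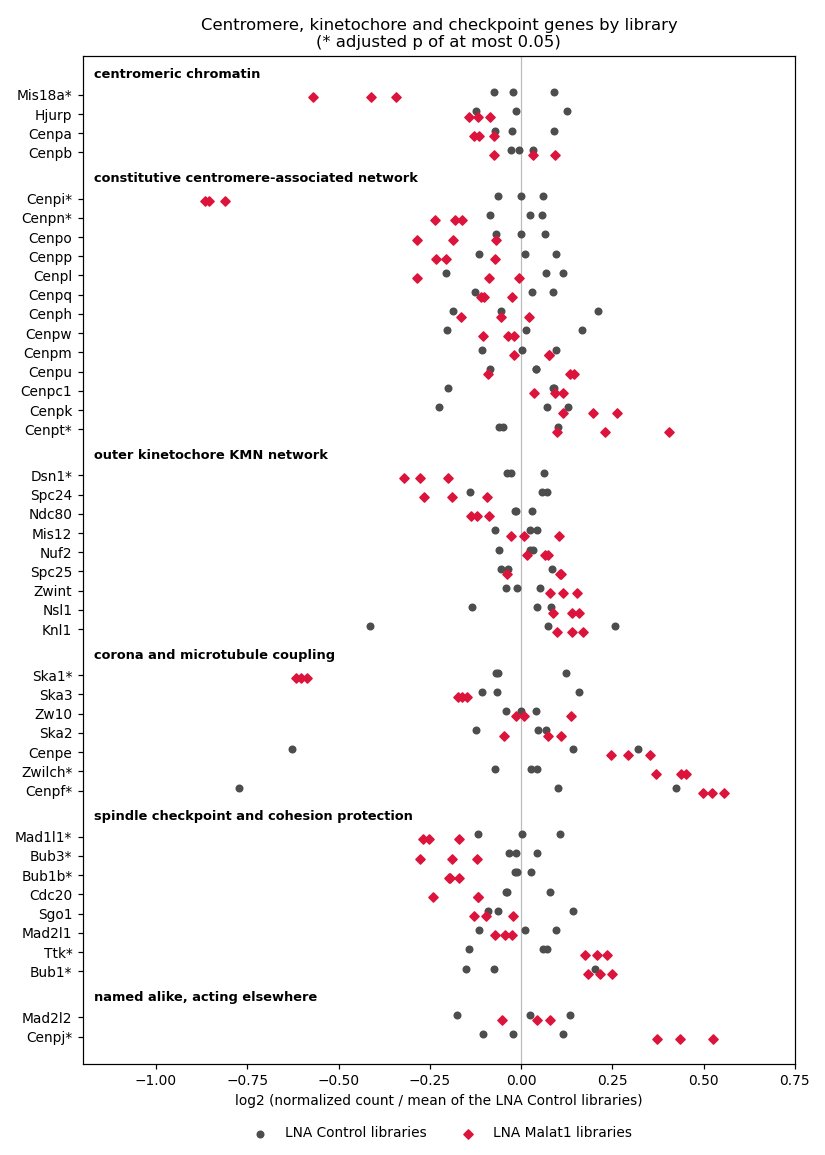
Each of the 43 genes by library, as log2 of the normalized count over the mean of the LNA Control libraries (grey circles, LNA Control; red diamonds, LNA Malat1; asterisks, limma adjusted p of at most 0.05), grouped by role. Cenpi and Ska1 lie to the left of their controls in all 3 LNA Malat1 libraries, Zwilch and Cenpj to the right, and LNA Control replicate 1 lies far to the left for Cenpf, Cenpe, and Knl1.

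Cenpi fell furthest. CENP-I is a subunit of the CENP-HIKM complex, which joins the inner network to the centromere and helps recruit both new CENP-A and the outer kinetochore. Cenpi (ENSMUSG00000031262, mm10, chromosome X, 134308084 to 134362639, plus strand) had 647, 705, and 676 normalized counts in the controls against 374, 371, and 385 after LNA Malat1. The groups were far apart, and the LNA Malat1 mean was 55.7% of LNA Control, about as low as that of Malat1 itself. The log2 fold change was -0.84 ± 0.05 (SE), at an adjusted p of 5.1e-07 by limma. Leaving out any library kept it between -0.87 and -0.81. The other subunits of the same complex did not pass the test, with log2 fold changes of -0.06 for Cenph, 0.05 for Cenpm, and 0.20 for Cenpk (limma adjusted p = 0.72, 0.72, and 0.1).

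A gene next to Cenpi fell further still. Trmt2b, which encodes a mitochondrial RNA methyltransferase and lies 31.1 kb before Cenpi on the other strand, had 357, 431, and 383 normalized counts in the controls against 141, 138, and 157 after LNA Malat1 (log2 fold change -1.42 ± 0.08 SE, adjusted p = 2.6e-07 by limma). Drp2, 41.9 kb past the other end of Cenpi, was at 36, 29, and 26 and then at 16, 18, and 18, which is -0.76 on the log2 scale (limma adjusted p = 0.019). Its call was lost without LNA Control replicate 1 or LNA Malat1 replicate 1 (limma adjusted p of 0.065 and 0.069). The window was chosen after the value of Trmt2b had been seen. Within 500 kb of Cenpi, 14 other genes were tested, with 4 of them lower and 1 higher by the adjusted p. Their median log2 fold change was -0.05. The higher gene was Gm10344, 382.9 kb past Cenpi and at low counts (5, 2, and 6 against 8, 12, and 12, 1.20 on the log2 scale, limma adjusted p = 0.046). Its call was lost without LNA Control replicate 2 or any LNA Malat1 replicate (limma adjusted p between 0.074 and 0.16). Over the 344 genes of chromosome X with a mean of at least 50, the median was -0.02 and 20.9% were lower, beside 19.7% over all chromosomes. Trmt2b, Cenpi, and Drp2 had lower values than the rest of the window, where the other lower genes, Armcx1 and Armcx2, both had log2 fold changes of -0.19 and lost their calls when LNA Control replicate 2 or any LNA Malat1 replicate was left out (limma adjusted p between 0.081 and 0.16).

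**Figure D2:**
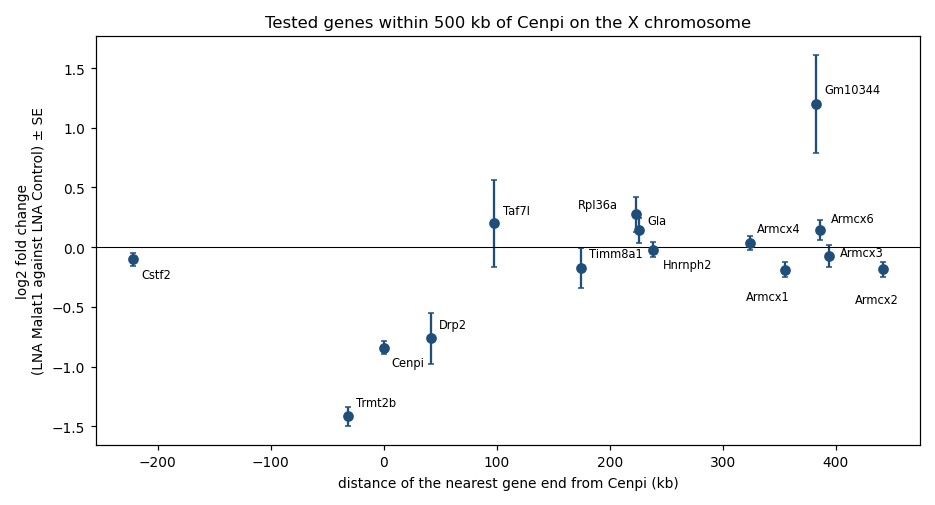
Log2 fold change (LNA Malat1 against LNA Control) with its SE for the tested genes within 500 kb of Cenpi, by the distance in kb of their nearest end from Cenpi, negative before it. Trmt2b, Cenpi, and Drp2 lie lowest, at -1.42, -0.84, and -0.76, and most genes past 90 kb lie near 0. Gm10344, a gene at low counts, lies highest at 1.20.

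The promoter of Cenpi was read from RefSeq (GRCm38.p6), as were those of the other members, from 250 bases before the start of transcription to 50 after it. Mitotic genes are known for promoters with CCAAT boxes, bound by NF-Y, and with the cell cycle genes homology region TTTGAA, through which the DREAM complex can silence them. A search on both strands for CCAAT and for TTTGAA, which do not overlap each other in the sequences shown, covered the 39 of 43 members with an entry. CCAAT was found for 25 of the 39 (64.1%), beside 41.1% of the 27025 genes of the promoter table. TTTGAA was found for 15 (38.5%, beside 20.2%), and 11 (28.2%, beside 7.97%) held both in 1 promoter. Shown are the promoters of the strongest faller, Cenpi, with a single CCAAT that starts 8 bases into the transcript, and of the checkpoint gene Bub1b, with a CCAAT on the minus strand, read as ATTGG, and a TTTGAA. Capitals mark the motifs.
Cenpi, GRCm38.p6 chrX:134307834-134308133, plus strand: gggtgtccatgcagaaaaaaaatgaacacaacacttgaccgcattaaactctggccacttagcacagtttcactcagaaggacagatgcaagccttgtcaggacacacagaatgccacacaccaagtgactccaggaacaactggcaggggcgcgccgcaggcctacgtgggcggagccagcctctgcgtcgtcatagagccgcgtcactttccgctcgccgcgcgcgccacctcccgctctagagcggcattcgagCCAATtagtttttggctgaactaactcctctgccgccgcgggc
Bub1b, GRCm38.p6 chr2:118597961-118598260, plus strand: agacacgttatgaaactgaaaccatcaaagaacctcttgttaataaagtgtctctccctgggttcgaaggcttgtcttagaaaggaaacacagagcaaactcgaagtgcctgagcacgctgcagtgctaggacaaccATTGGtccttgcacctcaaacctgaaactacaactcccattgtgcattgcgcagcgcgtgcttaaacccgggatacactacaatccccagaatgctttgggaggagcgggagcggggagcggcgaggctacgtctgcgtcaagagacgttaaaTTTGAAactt
The promoters of Mis18a, Dsn1, and Cenpj, the next members by adjusted p with an entry, held neither motif. Of the lower genes with an entry, 4 of 7 held CCAAT and 3 of 7 TTTGAA, of the higher genes 3 of 5 and 2 of 5, and of the rest 18 of 27 and 10 of 27. The shares were higher in the list than in the whole table, as a description with no test, and members of both directions held the motifs.

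Ska1 fell next. It encodes the microtubule-binding subunit of the SKA complex, which holds kinetochores on the ends of shortening microtubules. Ska1 (ENSMUSG00000036223, chromosome 18) had 263, 299, and 262 normalized counts in the controls against 183, 179, and 181 after LNA Malat1, which was 65.9% of LNA Control. The groups did not overlap, and the log2 fold change was -0.60 ± 0.07 (SE), with an adjusted p of 6.6e-05 by limma. Without LNA Control replicate 2 it was -0.53 (limma adjusted p of at most 0.0011 with any library left out), which is under the fold change minimum of 1.5. Ska1 also missed that minimum with GC content and length regressed out, with library totals set equal, and after quantile normalization. Its partners Ska2 and Ska3 had log2 fold changes of 0.05 and -0.16 and did not pass the test (limma adjusted p = 0.66 and 0.14), although all 3 LNA Malat1 libraries of Ska3 lay below the controls.

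Among the 4 genes of centromeric chromatin, 1 fell and the others did not pass. The share that passed was 25%, beside 28.3% of all genes tested and 31.9% at a mean of at least 50. Mis18a encodes a subunit of the Mis18 complex, which marks centromeres for the loading of new CENP-A. Mis18a (ENSMUSG00000022978, chromosome 16) had 297, 265, and 275 normalized counts in the controls against 188, 220, and 210 after LNA Malat1. These groups did not overlap, and the log2 fold change was -0.44 ± 0.08 (SE), with an adjusted p of 0.0011 by limma. Hjurp, the chaperone that deposits CENP-A, had the highest mean normalized count of the list in LNA Control, though not in LNA Malat1, with 2021, 1832, and 1698 in the controls against 1677, 1706, and 1744 after LNA Malat1. Its groups overlapped, and its log2 fold change was -0.11 (limma adjusted p = 0.22, and 0.022 without LNA Control replicate 3). Cenpa, the histone variant itself, had 950, 878, and 850 and then 816, 824, and 848, which did not overlap and did not pass (-0.11 on the log2 scale, limma adjusted p = 0.18), and Cenpb, which binds a motif in centromeric repeats, was at 0.02. Oip5, which encodes another subunit of the Mis18 complex and lies outside the 43 genes, was at -0.24 (limma adjusted p = 0.16).

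The 13 genes of the constitutive network had a median log2 fold change of -0.06, with Cenpt higher and Cenpi and Cenpn lower. These 3 are 23.1% of the group, beside 28.3% of all genes tested and 31.9% at a mean of at least 50. CENP-N reads the CENP-A nucleosome. Cenpn had 349, 316, and 341 normalized counts in the controls against 300, 296, and 285 after LNA Malat1, without overlap (log2 fold change -0.19 ± 0.06 SE, adjusted p = 0.035 by limma). Its call was lost without LNA Control replicates 1 or 3 or any LNA Malat1 replicate (limma adjusted p of 0.084, 0.071, 0.075, 0.082, and 0.12) and after GC content and length were regressed out (limma adjusted p = 0.073). CENP-L, which forms a pair with CENP-N, is encoded by Cenpl, at -0.12 (limma adjusted p = 0.43).

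CENP-T is a histone-fold protein that carries a direct bridge to the NDC80 complex. Cenpt had 292, 261, and 263 normalized counts in the controls against 360, 291, and 319 after LNA Malat1. The lowest LNA Malat1 library lay just under the highest control, and the log2 fold change was 0.25 ± 0.08 (SE), with an adjusted p of 0.038 by limma. Its call was lost without LNA Control replicates 2 or 3 or LNA Malat1 replicates 1 or 3 (limma adjusted p of 0.14, 0.081, 0.18, and 0.1). Its histone-fold partner Cenpw was at -0.05. The CENP-OPQUR complex, which binds microtubules and the kinase Plk1, had 4 members in the list, between -0.18 for Cenpo and 0.06 for Cenpu, and none passed. Its remaining subunit CENP-R, encoded by Itgb3bp and outside the 43 genes, had 147, 171, and 177 normalized counts in the controls against 105, 102, and 89 after LNA Malat1. It fell by 0.74 ± 0.10 (SE) on the log2 scale, with an adjusted p of 0.0002 by limma. Of its 4632 exonic bases, 398 are shared with Pgm1 on the other strand. Cenpc1, the backbone that contacts both the CENP-A nucleosome and Mis12, was at 0.09 (limma adjusted p = 0.41).

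In the outer kinetochore, 8 of 9 genes did not pass, and the median log2 fold change was 0.05. The exception was Dsn1, a subunit of the Mis12 complex that switches on its link to CENP-C when phosphorylated by Aurora B. This 1 gene is 11.1% of the group, beside 28.3% of all genes tested and 31.9% at a mean of at least 50. Dsn1 (ENSMUSG00000027635, chromosome 2) had 443, 472, and 440 normalized counts in the controls against 373, 393, and 362 after LNA Malat1. The groups did not overlap, and the log2 fold change was -0.26 ± 0.06 (SE), with an adjusted p of 0.0046 by limma. Its partners Mis12 and Nsl1 were at 0.03 and 0.13, and the last subunit Pmf1, outside the list, at -0.18 (limma adjusted p = 0.073). The microtubule-binding NDC80 complex stayed within a narrow range, from -0.18 for Spc24 and -0.12 for Ndc80 to 0.05 for Nuf2 and 0.06 for Spc25, with limma adjusted p between 0.097 and 0.5. All 3 LNA Malat1 libraries of Ndc80 lay below the controls (698, 721, and 699 against 649, 664, and 642), and those of Zwint, a Knl1 partner, lay above them (679, 724, and 693 against 756, 777, and 738, 0.12 on the log2 scale, limma adjusted p = 0.11).

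Of the 7 genes of the corona and of microtubule coupling, Zwilch and Cenpf were higher and Ska1 lower. These 3 are 42.9% of a small group, beside 28.3% of all genes tested and 31.9% at a mean of at least 50. Zwilch belongs to the Rod-Zw10-Zwilch complex, the building block of the fibrous corona, which brings dynein and the checkpoint proteins Mad1 and Mad2 to kinetochores. Zwilch (ENSMUSG00000032400, chromosome 9) had 433, 428, and 400 normalized counts in the controls against 570, 575, and 543 after LNA Malat1, 133.9% of LNA Control. Every LNA Malat1 library lay above every control, with a log2 fold change of 0.42 ± 0.055 (SE) and an adjusted p of 0.00013 by limma. The fold change ranged from 0.39 to 0.45 when single libraries were dropped. Zw10 was at 0.04 (limma adjusted p = 0.68), and Kntc1, which encodes Rod and is not in the list, at -0.10 (limma adjusted p = 0.13). Exons of Zwilch share 254 of their 4283 bases with Lctl on the other strand, and whether the counting used the strand is not given in the sources used here.

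**Figure D3:**
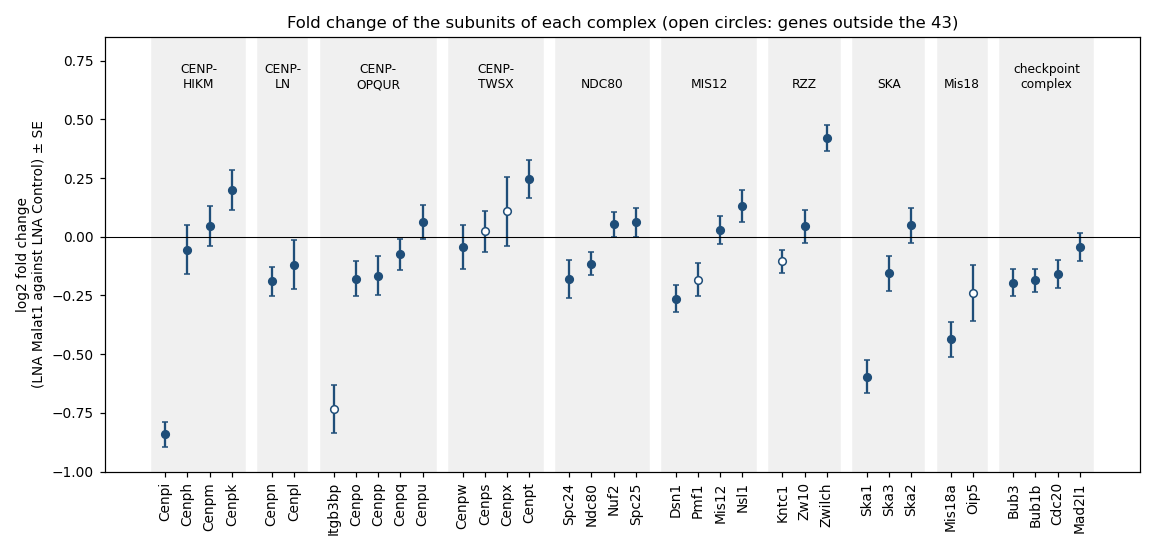
Log2 fold change (LNA Malat1 against LNA Control) with its SE for the subunits of 10 complexes, filled circles for the 43 genes and open circles for subunits outside the list. In 4 complexes 1 subunit stands well apart from its partners, namely Cenpi (-0.84), Itgb3bp (-0.74), Zwilch (0.42), and Ska1 (-0.60), and the NDC80 and checkpoint complexes spread little.

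Across complexes, large differences thus fell on single subunits. The difference between one subunit and its partners was not tested, and each gene's own test is the only one given. The range of log2 fold changes within a complex was widest for CENP-HIKM (-0.84 to 0.20) and narrow for the mitotic checkpoint complex (Bub3, Bub1b, Cdc20, and Mad2l1), whose 4 genes all had negative values, from -0.19 to -0.04.

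Cenpf had the largest positive log2 fold change, but its size rested on LNA Control replicate 1. CENP-F is a very large coiled-coil protein of the corona with microtubule-binding ends. Cenpf (ENSMUSG00000026605, chromosome 1) had 735, 1346, and 1686 normalized counts in the controls against 1846, 1804, and 1774 after LNA Malat1. The groups did not overlap, the LNA Malat1 libraries were tight, and LNA Control replicate 1 lay far below the others. The log2 fold change was 0.61 ± 0.21 (SE), with an adjusted p of 0.045 by limma, and without LNA Control replicate 1 it was 0.26 (limma adjusted p = 0.0097). Without LNA Control replicate 2 or LNA Malat1 replicates 1, 2, or 3 the call was lost (limma adjusted p of 0.084, 0.14, 0.13, and 0.13).

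The same library was low for 2 other large proteins. Cenpe, the kinesin that carries chromosomes to the spindle equator, had 1018, 1736, and 1962 normalized counts in the controls against 2007, 1927, and 1864 after LNA Malat1. Its groups overlapped, and the log2 fold change of 0.35 did not pass (SE 0.17, limma adjusted p = 0.15), with 0.07 (limma adjusted p = 0.45) without LNA Control replicate 1 and 0.54 (limma adjusted p = 0.017) without replicate 3. Knl1, the scaffold on which the Bub proteins assemble, had 1110, 1558, and 1770 and then 1665, 1584, and 1631. Its log2 fold change was 0.16 (limma adjusted p = 0.35), -0.03 without LNA Control replicate 1, and 0.31 (limma adjusted p = 0.037) without replicate 3.

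LNA Control replicate 1 tended to be low for transcripts with little GC, although Cenpf and Cenpe, its lowest members, did not have the least. Against the mean of the other controls it stood, on the log2 scale, at -1.04 for Cenpf, -0.86 for Cenpe, -0.58 for Knl1, and -0.32 for Cenpk, and at the other end at 0.24 for Ska3 and 0.20 for Hjurp. Over the 43 genes, this ratio correlated with the GC content of the longest transcript (Spearman's rho 0.61, Pearson's r 0.47), as it did over 10488 genes with a mean of at least 50 (rho 0.46, r 0.46). With the length of that transcript the values were rho -0.13 and r -0.63 over the 43 genes, and 0.01 and -0.03 over the 10488. These are descriptions across genes of the same 3 libraries, and genes are not independent replicates. The 4 members with under 45% GC and a transcript of at least 6 kb, Cenpe, Cenpf, Mad2l1, and Knl1, had a median ratio of -0.72, while 639 genes of that kind had -0.11 and 1001 genes as long with more GC had 0.08. With GC content and length regressed out in each library, an alternative chosen after seeing the data, Cenpf was at 0.61 (limma adjusted p = 0.0059), Cenpe at 0.37 (limma adjusted p = 0.04), and Knl1 at -0.03, so this correction and the removal of the library gave different values for Cenpf and Cenpe. Cenpw, Cenpp, and Nsl1 passed the test only after this correction among the fits run, at -0.30, -0.21, and 0.20 (limma adjusted p = 0.0063, 0.046, and 0.025). What set this library apart was not tested.

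**Figure D4:**
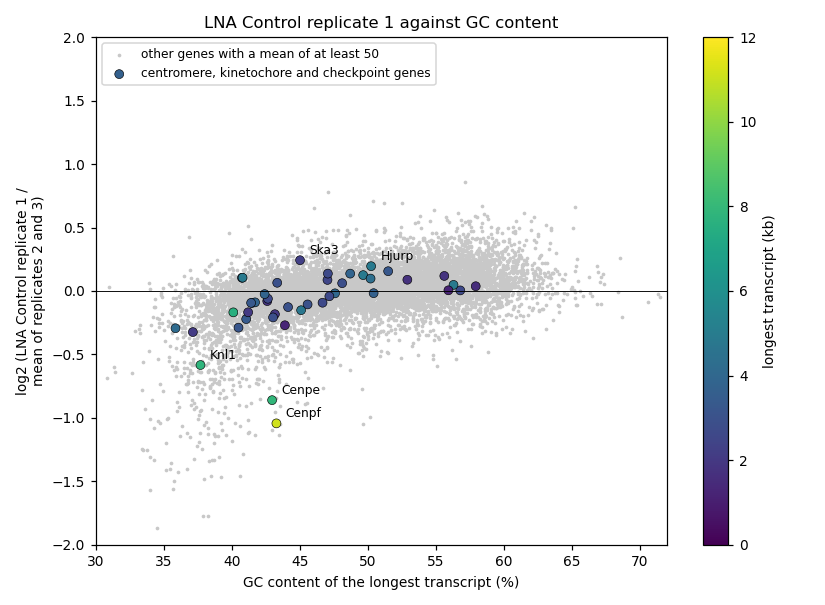
Log2 of LNA Control replicate 1 over the mean of replicates 2 and 3, by the GC content (%) of the longest transcript, for the 43 genes (coloured by transcript length in kb) and the other genes with a mean of at least 50 (grey). Ratios fall with lower GC content, and the long transcripts of Cenpf (-1.04), Cenpe (-0.86), and Knl1 (-0.58) lie lowest of the 43.

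The spindle checkpoint and cohesion protection genes went both ways. Of 8 genes, the kinases Ttk and Bub1 were higher, Bub1b, Bub3, and Mad1l1 were lower, and Mad2l1, Cdc20, and Sgo1 did not pass. The 5 that passed are 62.5% of this small group, beside 28.3% of all genes tested and 31.9% of those with a mean of at least 50. All of these differences were under the fold change minimum of 1.5, and each of the 5 calls was lost in at least 1 setting. Ttk, also known as Mps1, starts checkpoint signalling by phosphorylating Knl1. It had 398, 458, and 462 normalized counts in the controls against 496, 517, and 508 after LNA Malat1, without overlap (log2 fold change 0.21 ± 0.06 SE, adjusted p = 0.028 by limma). The call was lost without LNA Control replicate 1 (0.14, limma adjusted p = 0.075) and without LNA Malat1 replicates 1, 2, or 3 (limma adjusted p of 0.071, 0.1, and 0.091). Bub1, which marks centromeric histone H2A for Sgo1, had 478, 504, and 611 and then 603, 631, and 617. These groups overlapped (log2 fold change 0.22 ± 0.08 SE, adjusted p = 0.049 by limma), and LNA Control replicate 3 was the only library whose removal kept the call, with limma adjusted p between 0.11 and 0.18 for the others.

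On the lower side, BubR1, the product of Bub1b, is the part of the checkpoint complex that blocks the anaphase promoting complex directly. Bub1b had 1120, 1151, and 1116 normalized counts in the controls against 987, 1004, and 985 after LNA Malat1. Its groups were tight and apart, with a log2 fold change of -0.19 ± 0.05 (SE), with an adjusted p of 0.012 by limma, but the call was lost, narrowly, without LNA Control replicate 2 or LNA Malat1 replicates 1 or 3 (limma adjusted p of 0.05, 0.06, and 0.055). Bub3, which carries Bub1 and BubR1 to Knl1, had 541, 563, and 533 and then 450, 502, and 479. It did not overlap either (-0.19 ± 0.06 SE, adjusted p = 0.023 by limma), and its call was lost without LNA Control replicate 2 or LNA Malat1 replicates 1 or 3 (limma adjusted p of 0.09, 0.12, and 0.069). Mad1l1 encodes Mad1, the platform on which Mad2 is converted to its active form. It had 632, 679, and 581 normalized counts in the controls against 561, 530, and 524 after LNA Malat1 (-0.23 ± 0.06 SE, adjusted p = 0.018 by limma), and its call was lost without LNA Control replicate 2 or LNA Malat1 replicates 2 or 3 (limma adjusted p of 0.089, 0.072, and 0.085).

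Cdc20, the activator of the anaphase promoting complex that the checkpoint holds back, had 449, 413, and 414 normalized counts in the controls against 392, 392, and 360 after LNA Malat1. All LNA Malat1 libraries lay below the controls, and the log2 fold change of -0.16 did not pass (SE 0.06, limma adjusted p = 0.07). Mad2l1, which encodes Mad2, was at -0.04 (limma adjusted p = 0.62), and Sgo1, the protector of centromeric cohesin, at -0.08 (limma adjusted p = 0.4).

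A pair of genes in the list share a name with the others but act elsewhere. CENP-J, also known as CPAP, builds centrioles, and Mad2l2 encodes a protein of translesion synthesis and of DNA break repair. Cenpj (ENSMUSG00000064128, chromosome 14) had 274, 290, and 319 normalized counts in the controls against 424, 398, and 381 after LNA Malat1. The groups did not overlap, and the log2 fold change was 0.45 ± 0.07 (SE), with an adjusted p of 0.00048 by limma and a range of 0.40 to 0.51 when single libraries were dropped. Mad2l2 had the lowest level of the list by normalized count, between 67 and 83 in every library, and was at 0.03 (limma adjusted p = 0.88). Cenpj was thus the second of the higher genes by fold change and, by its known role, no kinetochore gene.

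Per kilobase of exons, counting every annotated exon of a gene, LNA Control levels ran from 26.1 ± 3.0 (SD, n = 3) normalized counts per kb for Cenpl to 264.1 ± 4.5 for Bub1b, a range of 10.1-fold, with a median of 97.1. After Bub1b came Cdc20 at 228 ± 11, Hjurp at 222 ± 19.5, Cenpe at 182 ± 57.2, Knl1 at 173 ± 39.5, and Mad1l1 at 173 ± 13.4. In this order of 43 levels, 37 of the 42 pairs of neighbours overlapped between their libraries, so most neighbours in it cannot be told apart. Subunits of 1 complex were not at 1 level: CENP-L was at 26.1 and its partner CENP-N at 102, and CENP-HIKM ran per kb of exons from 57.9 for Cenpk to 119 for Cenpi, which in LNA Malat1 stood at 66.3. Exons of Cenpu and Cenpo share 26.7% and 19% of their bases with genes on the other strand, Primpol and Adcy3, so their levels are less certain. The order also depends on the length used. Per kilobase of the longest transcript, a scale added after seeing the data, Hjurp was highest at 379 ± 33.3 (SD, n = 3) and Bub1b next at 308 ± 5.2, Cenpl stayed lowest at 30.4 ± 3.5, and in CENP-HIKM Cenpm was lowest at 112 ± 7.9 and Cenpk stood at 146 ± 18.5.

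**Figure D5:**
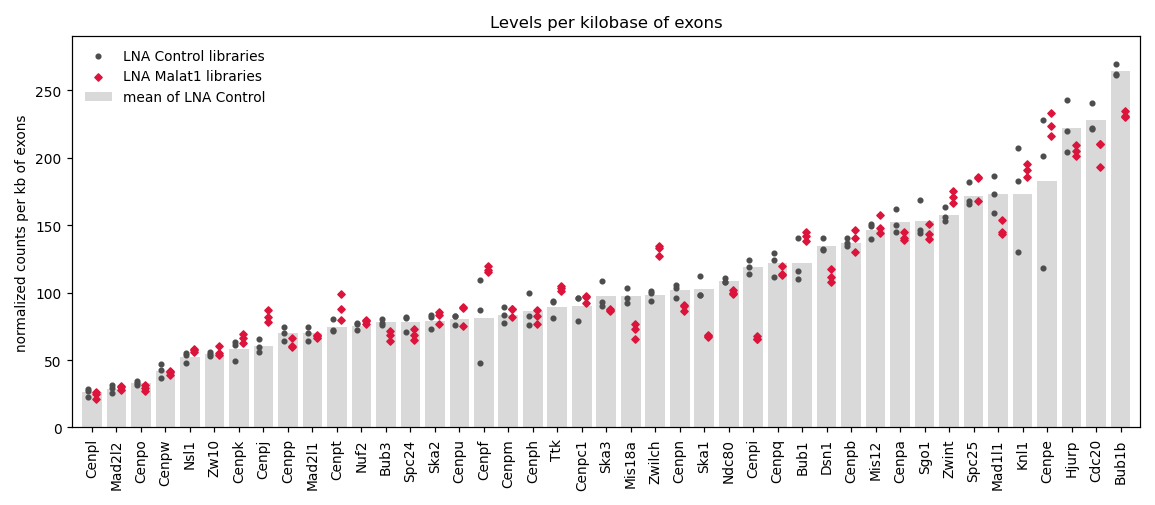
Normalized counts per kb of exons for the 43 genes, in the order of their LNA Control mean (grey bars), with each LNA Control library (grey circles) and each LNA Malat1 library (red diamonds). Levels rise smoothly from Cenpl (26.1) to Bub1b (264.1), and the controls of Cenpf, Cenpe, and Knl1 are spread most for their height.

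Other genes of the same pathway, from lists beside the 43, also went both ways or did not pass. Of 18 other centromere and kinetochore genes, 1 was higher and 2 were lower, 16.7% beside the 28.3% of all genes tested and 31.9% at a mean of at least 50. Beside Itgb3bp, these were Ercc6l, the translocase PICH of anaphase DNA bridges (-0.18 on the log2 scale, limma adjusted p = 0.014), and Tpr, a nuclear pore protein that binds Mad1 (0.40, limma adjusted p = 0.027), which was low in LNA Control replicate 1 (1618, 2302, and 2503 against 2868, 2846, and 2648). Of 14 genes of the chromosomal passenger complex and the mitotic kinases with their cyclins, 4 were lower and none was higher, with a median of -0.10. Lower were Ccna2 (-0.26, limma adjusted p = 0.0064), Aurka (-0.20, limma adjusted p = 0.012), Ccnb1 (-0.20, limma adjusted p = 0.025), and Cdk1 (-0.17, limma adjusted p = 0.03), the last 3 known drivers of mitotic entry, while Aurkb, the kinase of the passenger complex, was at -0.04 (limma adjusted p = 0.71). The 4 are 28.6% of these genes, beside 14% lower of all genes tested and 19.7% at a mean of at least 50. In either direction the backgrounds were 28.3% and 31.9%, and the list was not tested as a set.

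Of 19 genes of the anaphase promoting complex and of separase, 1 was higher and 2 were lower, 15.8% against the same backgrounds of 28.3% and 31.9%. Anapc16, a small structural subunit, was lower (-0.36, limma adjusted p = 0.00088), as was the G1 activator Fzr1 (-0.22, limma adjusted p = 0.025), and the E2 enzyme Ube2c was higher (0.28, limma adjusted p = 0.014). Of 18 cohesin and condensin genes, 1 was higher and 3 were lower, 22.2% against those backgrounds. The higher gene was Ncapg of condensin I (0.19, limma adjusted p = 0.035). Among the lower ones, Stag1, a cohesin subunit, was at -0.36 (limma adjusted p = 0.0013), Ncapd3 of condensin II at -0.22 (limma adjusted p = 0.0057), and the cohesin kleisin Rad21 at -0.18 (limma adjusted p = 0.02). Finally, 31 of the 43 genes carry the term kinetochore in the table, and the 81 other tested genes with it included 7 that were higher and 19 that were lower by the adjusted p. These are 32.1%, beside 28.3% of all genes tested and 31.9% of those with a mean of at least 50. The median of the 81 genes was -0.05, beside 0.02 over all genes tested and -0.03 at a mean of at least 50. Of the genes named from these lists, Itgb3bp, Ccna2, Anapc16, Stag1, and Ncapd3 kept their calls with each library left out, and the others lost theirs in at least 1 of those fits (limma adjusted p of up to 0.14).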

How the data were processed

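RNA-seq libraries of HL-1 cells (3 LNA Control, 3 LNA Malat1, grouped by their titles) were analysed. The authors trimmed single-end reads of 75 bp with Trimmomatic 0.39, aligned them to mm10 with STAR 2.7.7a, counted reads per gene with featureCounts 1.6.5, and ran DESeq2 1.30.0. What the authors deposited is treated as a score: gene counts divided by a scaling factor of the library, then rounded, called normalized counts here. The table also holds the authors' own fold changes and p-values, which were not used. Members and lists were chosen with earlier results of these data known.

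Genes with a mean of at least 5 (15650 of 21269) entered a linear model of log2(normalized count + 1) over all 6 libraries (limma 3.58.1, R 4.3.3, moderated with an intensity trend), with two-sided p-values adjusted by Benjamini and Hochberg. The pseudocount understates changes of low genes. A gene passed at an adjusted p of at most 0.05. The further threshold was a fold change of at least 1.5. The script was tested on simulated data with 2-fold changes and the same spread in both groups. That test does not cover smaller changes or the unequal spread of these libraries. An exact permutation test of 3 against 3 cannot go below 0.1 and was not used. Each library's factor, and so its reads, was recovered from the gaps that rounding leaves (4512253 to 5592464 reads on genes). Reads are not independent molecules, and the chi-square comparison covers counting error only.

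Exons, positions and GC content come from GENCODE M21, promoters from RefSeq. Named in full were members that passed, the 6 highest per kb and the 3 largest and 3 smallest fold changes, and of the pathway lists those past both thresholds and the 3 lowest adjusted p. Other genes named were chosen after their values were seen. Alternatives were pseudocounts of 0.1 and 5, 3 other scalings, 2 other filters, 2 other fold minimums, a block for the replicate number, voom on the recovered reads, a fit with replicates 1 and 3 of LNA Malat1 as 1 sample, leaving out each library, and, added after seeing the data, GC content and length regressed out (99.9% of genes had both). A gene of the other lists is not reported here.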

Additional observations from a re-analysis of the deposited data

How the results depend on the processing

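All 43 genes had a mean above 76 normalized counts, and the lowest held 62 recovered reads in a library, which limits its precision. Of 782 values of single genes under other settings, 699 kept direction and side of the threshold, 53 lost it, 13 gained it, and 17 changed sign. These values include genes that had not passed, which had no call to lose. Of the 14 members that passed, 6 kept their call in all 17 settings, and Cenpn and Bub1 kept theirs in only 8. The cause of these changes was not tested.

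Among all genes, 1252 were higher and 457 lower past both thresholds. Higher were 317 with a mean of at least 50, 748 after quantile normalization, 831 with LNA Malat1 replicates 1 and 3 as 1 sample, 2231 without a fold minimum, 742 at 2-fold, and 810 to 1582 with each library left out. Lower were 718 after quantile normalization, 2195 without a fold minimum, 99 at 2-fold, and 406 to 475 with each library left out.

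Of the 43 genes, 1 was higher past both thresholds, 0 with a mean of at least 50, with no filter, with a pseudocount of 0.1, with replicates 1 and 3 as 1 sample or at 2-fold, 6 without a fold minimum, and 0 to 1 with each library left out. Lower were 2, with 1 after GC content and length were regressed out, with library totals set equal or after quantile normalization, 8 without a fold minimum, 0 at 2-fold, and 1 to 2 with each library left out. At any fold, 6 were higher (2 with no filter, 2 with replicates 1 and 3 as 1 sample, 2 to 7 with each library left out) and 8 lower (5 after quantile normalization, 4 with replicates 1 and 3 as 1 sample, 4 to 9 with each library left out). The median stayed between -0.046 and -0.005 with each library left out.

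The genes whose log2 fold change changed sign had not passed the test. With single libraries left out, Cenpb ranged from -0.021 to 0.063, Cenpc1 from -0.009 to 0.136, Cenph from -0.144 to 0.054, Cenpm from -0.005 to 0.096, Cenpw from -0.142 to 0.042, Mis12 from -0.009 to 0.057, Knl1 from -0.030 to 0.306, Zw10 from -0.003 to 0.073, Ska2 from -0.012 to 0.095, Mad2l1 from -0.099 to 0.006, and Mad2l2 from -0.054 to 0.098. Cenpb was at -0.001 with median-of-ratios scaling, Mad2l1 at 0.019 and Mad2l2 at -0.051 after quantile normalization, and Knl1 at -0.025 and Ska2 at -0.001 with GC content and length regressed out.

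Same-numbered libraries had correlated deviations of 0.086, 0.182, and 0.083 across 10490 genes, which does not show pairing by number, although each library correlated best with its own number, a hint from the data and not the design. With the replicate block, 1297 genes were higher and 442 lower, 1 and 2 of the 43 past both thresholds and 7 and 8 at any fold (limma), the added gene being Cenpk at 0.20 (limma adjusted p = 0.037).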
